A study of Rattus norvegicus with 12 samples.

Results

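The interleukin 6 family and its signalling pathway were described here by 10 named genes: the ligands Il6, Il11, Lif and Osm, the receptors Il6r, Il6st, Lifr and Osmr, the transcription factor Stat3 and its inhibitor Socs3. They were found by their symbol in the annotation of the arrays, which gave 9 of the 10 genes, among 14217 genes in all. No probe set carried the symbol Osmr, and that gene was not analysed here. The 9 genes have 14 probe sets. Il6st has 4 of them, Lifr and Stat3 have 2 each, and the other genes have 1 each. The probe set with the highest mean log2 signal over the 12 arrays stands for its gene, and the other probe sets are given beside it.

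Male Wistar Han rats, 6 to 7 weeks old on arrival, inhaled 200 ppm 2,3-pentanedione (PD), a butter flavoring chemical, or filtered air over 2 weeks, on 12 exposure days of 6 hours each. Bronchi were cut from frozen sections of the right diaphragmatic lobe by laser capture microdissection, and amplified RNA was hybridized to rat arrays. The control group is 6 arrays of bronchi of air-exposed rats (replicates 1 to 6), with the epithelium and the wall. The non-fibrotic group is 3 arrays of such bronchi of PD-exposed rats (replicates 4, 8 and 10), and the fibrotic group is 3 arrays of intraluminal polyps or plaques of PD-exposed rats with the wall beneath them (replicates 3, 7 and 9). The methods name 5 exposed rats, of which 3 gave non-fibrotic bronchi, so that fibrotic and non-fibrotic specimens share rats in part. The labels do not say which, and p-values between these groups take no account of it.

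Cytokines of the interleukin 6 family signal through receptor complexes that contain Il6st, also called gp130. Interleukin 6 and interleukin 11 each bind a receptor of their own before they engage Il6st, whereas leukemia inhibitory factor and oncostatin M signal through complexes of Il6st with Lifr or Osmr. The complexes activate Janus kinases, which phosphorylate Stat3, and Stat3 then induces Socs3, an inhibitor of the same complexes. In the lung these cytokines are made by macrophages, fibroblasts and epithelium, and they are known for their part in the acute phase response, epithelial repair and fibrosis.

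All values are log2 MAS5 signals, and differences are given on the same log2 scale. Levels were not compared between genes, since probe sets bind with different strength. The highest signal of bacterial transcripts that had not been added to the samples was 6.52, over 84 values, and signals under it are called below the absent-transcript level. Where all arrays of a group lay below it, the fold is given as a lower bound, with each dim array set to that level. Differences were tested with limma over all 31042 probe sets, and genes with a p under 0.01 after Benjamini-Hochberg adjustment are termed called. Fibrotic and non-fibrotic bronchi were compared with the same controls.

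Controls 1 and 2 stand apart from controls 3 to 6. Poly-A spike-in transcripts, which are added before amplification, had a mean log2 signal of 2.32 in controls 1 and 2, 10.35 in controls 3 to 6 and 10.07 in the 6 exposed arrays. The 3′ probe set of Gapdh exceeded its 5′ probe set by 1.60, 0.78 and 2.03 in these 3 sets, a measure of RNA length after amplification. For the genes of the family and the pathway, it is stated where a call depends on the set of controls. The values with either set alone are given for some of them. Controls do not enter the log2 difference between fibrotic and non-fibrotic bronchi. There the choice of controls changes only the estimated spread and the adjusted p.

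The clearest difference in the family was the lower signal of Lifr in fibrotic bronchi, which both of its probe sets showed. Higher signals in all 3 fibrotic arrays than in any control were found for the ligands Il6, Il11 and Osm and the receptor Il6r. Of these only Il11 was called against control, and only Il6 against non-fibrotic bronchi. Il6st and Stat3 had high signals in all groups, and their probe sets differed in direction. In non-fibrotic bronchi no gene of the family was called against control.

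**Figure D1:**
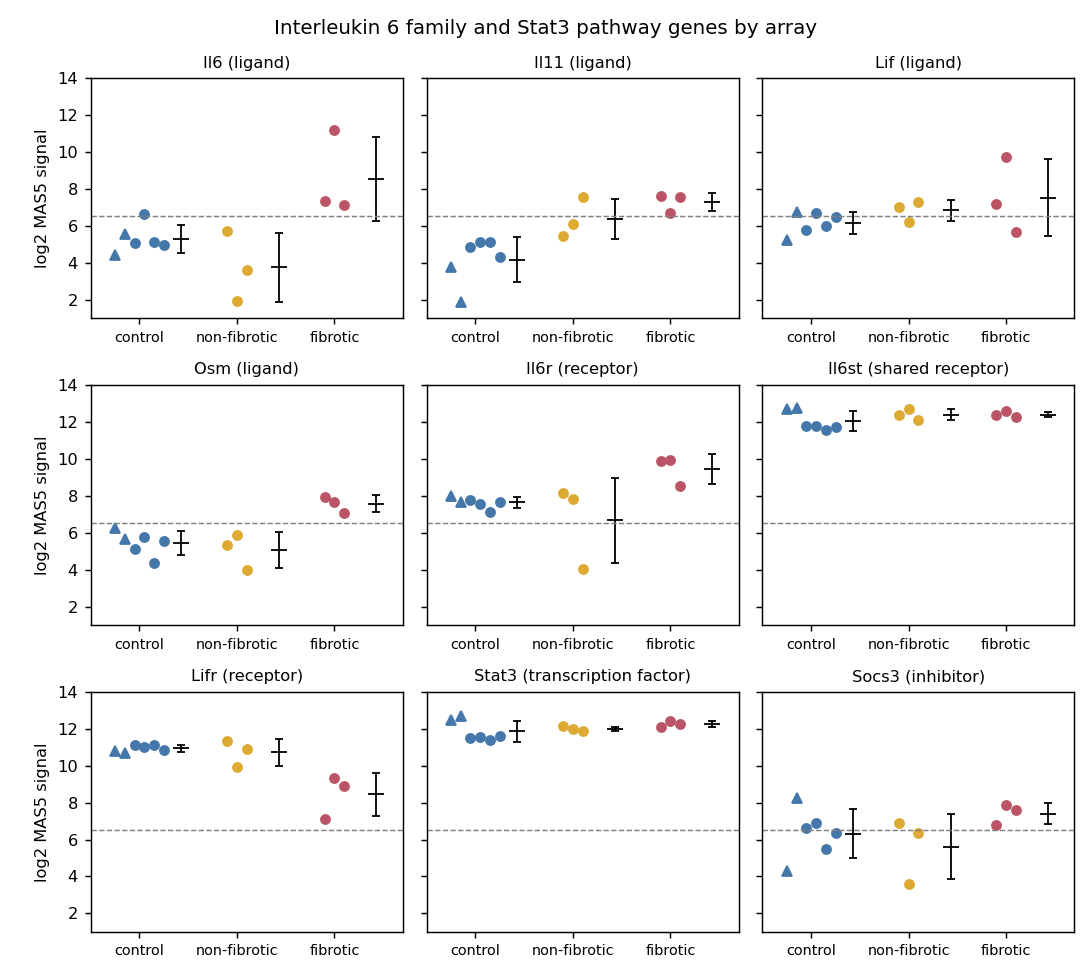
Log2 MAS5 signal (vertical axis) of the 9 genes in each array, with control arrays in blue (controls 1 and 2 as triangles), non-fibrotic arrays in yellow and fibrotic arrays in red. Black marks are group means with SD (n = 6, 3 and 3) and the dashed line is the absent-transcript level of 6.52. The 3 fibrotic arrays lie above all controls for Il6, Il11, Osm and Il6r and below all other arrays for Lifr.

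Il6, the founding ligand of the family, is shown with Il11 by the 250 bases before its annotated start, because these are the ligands called in a comparison. Sequences are from RefSeq on the GRCr8 build, on the strand of the gene: chr4:5894576-5894825, minus strand, for Il6, and chr1:78098372-78098621, plus strand, for Il11. Capitals mark matches to motifs that were searched on both strands.
Il6: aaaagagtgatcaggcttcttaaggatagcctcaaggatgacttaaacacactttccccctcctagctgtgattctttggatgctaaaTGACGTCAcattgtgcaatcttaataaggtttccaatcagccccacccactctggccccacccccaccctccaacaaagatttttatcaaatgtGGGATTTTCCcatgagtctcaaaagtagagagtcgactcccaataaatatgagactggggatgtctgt
Il11: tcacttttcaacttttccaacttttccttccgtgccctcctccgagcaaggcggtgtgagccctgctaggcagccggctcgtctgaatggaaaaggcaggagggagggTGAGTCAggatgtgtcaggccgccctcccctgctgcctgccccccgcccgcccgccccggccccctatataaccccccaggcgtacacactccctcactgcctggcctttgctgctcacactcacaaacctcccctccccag

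The capitals in Il6 are TGACGTCA, the cyclic AMP response element, 162 to 155 bases before the start, and GGGATTTTCC, a form of the NF-kappaB site, 68 to 59 bases before it, searched with any base at the fifth position. The capitals in Il11 are TGANTCA, the AP-1 site, 142 to 136 bases before the start, with N for any base. Among 33469 promoter windows of the same length these motifs were present in 1.59%, 0.314% and 6.34%. The Stat site TTCNNNGAA, present in 7.67% of the windows, was in none of the 7 windows available for the family, which were those of Il6, Il6r, Il6st, Il11, Lifr, Socs3 and Stat3. The windows hold only the 250 bases before an annotated start, and sites outside them were not searched, so a gene without a match may have one elsewhere. A match is a matter of letters only, and binding was not measured.

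Il6 was at log2 signals of 4.41, 5.57, 5.06, 6.63, 5.14 and 4.97 in controls 1 to 6, at 5.71, 1.95 and 3.63 in non-fibrotic bronchi 4, 8 and 10, and at 7.35, 11.19 and 7.14 in fibrotic bronchi 3, 7 and 9. The 3 fibrotic arrays were the 3 highest of all 12, and fibrotic 7 stood well above the other two. All non-fibrotic arrays and 5 of the 6 controls lay below the absent-transcript level. Against non-fibrotic bronchi Il6 was higher in fibrotic bronchi by a log2 difference of 4.80 ± 1.07 (SE; adjusted p = 0.00989), at least 4.12-fold, or at least 1.66-fold without fibrotic 7. Against control the log2 difference was 3.26 ± 0.92 (SE; adjusted p = 0.0223), or 2.02 with arrays below the level set to it, and was not called. Without fibrotic 7 it was 1.95 (adjusted p = 0.169). Without fibrotic 7 the difference from non-fibrotic bronchi was 3.48 with adjusted p = 0.0519. Over 24 alternative analyses the adjusted p ran from 0.00292 to 0.0519, and 17 of them lost the call. Among these 17 were the analyses with controls 1 and 2 alone and with controls 3 to 6 alone. Others were those without any 1 of the controls, fibrotic 3 or 7, or non-fibrotic 8 or 10. Leaving out controls does not change the log2 difference between fibrotic and non-fibrotic bronchi, only its estimated spread and so its adjusted p.

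Il11, a ligand known for its action on fibroblasts, was at 3.77, 1.89, 4.87, 5.11, 5.11 and 4.32 in controls 1 to 6, at 5.44, 6.11 and 7.55 in the non-fibrotic arrays and at 7.61, 6.72 and 7.57 in the fibrotic arrays. All controls lay below the absent-transcript level, 1 of the 3 non-fibrotic arrays lay above it, and all fibrotic arrays did. Neither exposed group overlapped with the controls, whereas the exposed groups overlapped with each other. In fibrotic bronchi Il11 was higher than in controls by a log2 difference of 3.12 ± 0.75 (SE; adjusted p = 0.00859), which amounts to at least 1.72-fold. In non-fibrotic bronchi the log2 difference from control was 2.19 ± 0.75 (SE; adjusted p = 0.0838), and no bound can be given because the mean of that group was below the level. Fibrotic and non-fibrotic bronchi differed in Il11 by 0.93 on the log2 scale, with a 95% interval of -0.90 to 2.76. The call against control was lost in 11 of 24 alternative analyses, namely without control 1, 3, 4, 5 or 6, without any 1 of the fibrotic arrays, with controls 1 and 2 alone, with no intensity trend in the variance model and with array weights. With controls 1 and 2 alone the log2 difference was 4.46 (adjusted p = 0.0226), and with controls 3 to 6 alone it was 2.44 (adjusted p = 0.00985).

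Osm, or oncostatin M, a ligand made by macrophages, neutrophils and T cells, was at 6.28, 5.64, 5.13, 5.76, 4.36 and 5.56 in controls 1 to 6, at 5.36, 5.87 and 3.99 in the non-fibrotic arrays and at 7.96, 7.68 and 7.10 in the fibrotic arrays. Every control and non-fibrotic array was below the absent-transcript level and every fibrotic array above it. The log2 difference was 2.13 ± 0.58 (SE; adjusted p = 0.0186) against control and 2.51 ± 0.67 (SE; adjusted p = 0.0279) against non-fibrotic bronchi. Both amount to at least 2.09-fold, and neither was called at the adjusted p of 0.01.

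Lif, leukemia inhibitory factor, was at 5.22, 6.77, 5.76, 6.68, 6.02 and 6.49 in controls, at 7.02, 6.21 and 7.32 in non-fibrotic bronchi and at 7.18, 9.76 and 5.65 in fibrotic bronchi. The groups overlapped, with fibrotic 7 the highest array and fibrotic 9 the lowest but one. The log2 difference between fibrotic and control bronchi was 1.38, with a 95% interval of -0.12 to 2.87 (adjusted p = 0.193). It was 0.26 without fibrotic 7 and 2.32 without fibrotic 9 (adjusted p = 0.822 and 0.0322).

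Among the receptors, Il6r, the receptor of interleukin 6 itself, was at 8.01, 7.67, 7.80, 7.58, 7.15 and 7.69 in controls 1 to 6. It was at 8.15, 7.84 and 4.02 in non-fibrotic bronchi and at 9.88, 9.94 and 8.52 in fibrotic bronchi. The fibrotic arrays were the 3 highest, and non-fibrotic 10 was the only array below the absent-transcript level. The log2 difference between fibrotic and control bronchi was 1.80 ± 0.69 (SE; adjusted p = 0.0838), and that between fibrotic and non-fibrotic bronchi was 2.78 ± 0.79 (SE; adjusted p = 0.0369). Neither was called. Without non-fibrotic 10 the latter fell to 1.45 (adjusted p = 0.0748), and the former, 1.80, had an adjusted p of 0.00299. Without non-fibrotic 4 the latter was 3.52 (adjusted p = 0.00992).

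Lifr, the receptor subunit that leukemia inhibitory factor binds, was at 10.83, 10.69, 11.12, 11.01, 11.12 and 10.86 in controls 1 to 6, at 11.37, 9.93 and 10.91 in non-fibrotic bronchi and at 7.13, 9.31 and 8.92 in fibrotic bronchi. The controls kept within a narrow range (mean 10.94 ± 0.17, SD, n = 6), the non-fibrotic arrays lay on both sides of it, and the 3 fibrotic arrays lay below all others. Lifr was 5.60-fold lower in fibrotic than in control bronchi, a log2 difference of -2.49 ± 0.40 (SE; adjusted p = 0.000376). Against non-fibrotic bronchi it was 4.87-fold lower, with a log2 difference of -2.28 ± 0.46 (SE; adjusted p = 0.00500). Between non-fibrotic and control bronchi the log2 difference was -0.20, with a 95% interval of -1.04 to 0.64 (adjusted p = 0.776).

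The other probe set of Lifr was at 9.55, 9.06, 9.79, 9.54, 9.70 and 9.53 in controls, at 9.68, 10.82 and 10.19 in non-fibrotic bronchi and at 5.43, 7.03 and 5.69 in fibrotic bronchi. Fibrotic 7 was the only fibrotic array above the absent-transcript level. The log2 difference of fibrotic bronchi was -3.48 ± 0.36 (SE; adjusted p = 7.2e-06) from control and -4.18 ± 0.42 (SE; adjusted p = 2.1e-05) from non-fibrotic bronchi, or -2.84 and -3.54 with arrays below the level set to it. With controls 1 and 2 alone the first probe set gave an adjusted p of 0.0489 against control, and this one gave 0.00863. With controls 3 to 6 alone this probe set gave 4.1e-05. In RefSeq no protein-coding gene starts between Lifr and Osmr, or between Lif and Osm, so these are pairs of neighbours.

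**Figure D2:**
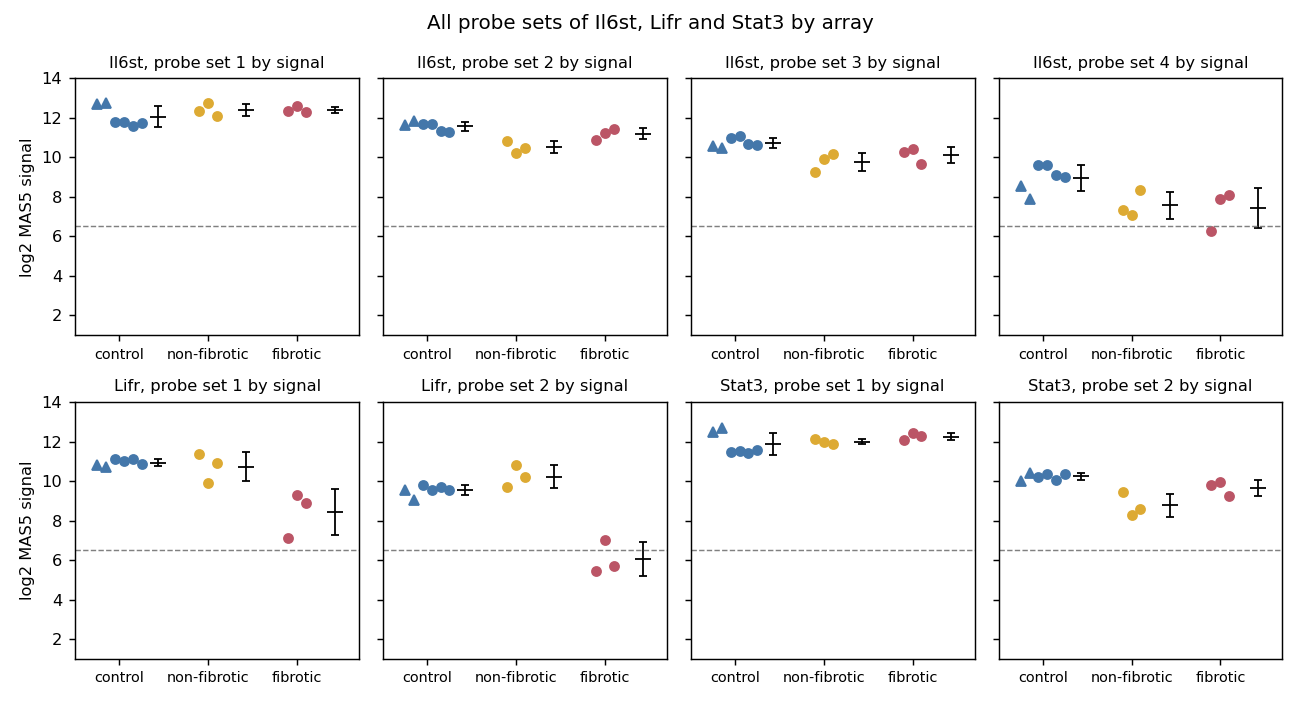
Log2 MAS5 signal (vertical axis) in each array for the 4 probe sets of Il6st and the 2 each of Lifr and Stat3, in falling order of mean signal, with colours, triangles, SD bars and dashed line as in the plot of the 9 genes. Both Lifr probe sets are lowest in the 3 fibrotic arrays. In the first probe sets of Il6st and Stat3, controls 1 and 2 are higher than controls 3 to 6.

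Il6st, the subunit shared by all receptors of the family, was at 12.72 and 12.76 in controls 1 and 2, at 11.78, 11.78, 11.57 and 11.72 in controls 3 to 6, at 12.37, 12.73 and 12.11 in non-fibrotic bronchi and at 12.36, 12.58 and 12.29 in fibrotic bronchi. The exposed arrays thus lay between the 2 sets of controls, apart from non-fibrotic 8, which reached the level of controls 1 and 2. The log2 difference from control was 0.35 in fibrotic bronchi (95% interval -0.21 to 0.92, adjusted p = 0.393) and 0.35 in non-fibrotic bronchi (adjusted p = 0.424). With controls 3 to 6 alone the difference of fibrotic bronchi was 0.69 with adjusted p = 0.00825, and with controls 1 and 2 alone it was -0.33.

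The other 3 probe sets of Il6st, in falling order of signal, differed between fibrotic and control bronchi by -0.39, -0.62 and -1.53 on the log2 scale, opposite in sign to the first. Between non-fibrotic and control bronchi these differences were -1.06, -0.96 and -1.39, with adjusted p of 0.0134, 0.0394 and 0.0880. None was called. The brighter 2 of these probe sets had all non-fibrotic arrays below all controls. A direction for Il6st therefore depends on the probe set.

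Stat3 showed the same division. Its first probe set was at 12.51 and 12.68 in controls 1 and 2, at 11.50, 11.55, 11.42 and 11.60 in controls 3 to 6, at 12.13, 11.99 and 11.88 in non-fibrotic bronchi and at 12.09, 12.43 and 12.26 in fibrotic bronchi. The exposed arrays lay between the 2 sets of controls. The log2 difference of fibrotic from control bronchi was 0.38 (95% interval -0.19 to 0.95, adjusted p = 0.354), 0.74 with controls 3 to 6 alone (adjusted p = 0.00234) and -0.34 with controls 1 and 2 alone.

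The other probe set of Stat3 was at 10.03, 10.40, 10.20, 10.35, 10.08 and 10.37 in controls, at 9.43, 8.31 and 8.57 in non-fibrotic bronchi and at 9.78, 9.97 and 9.22 in fibrotic bronchi. All exposed arrays were below all controls. The log2 difference was -1.47 ± 0.27 (SE; adjusted p = 0.0105) in non-fibrotic bronchi and -0.58 ± 0.27 (SE; adjusted p = 0.156) in fibrotic bronchi. The arrays measure Stat3 RNA and not its phosphorylation.

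Socs3, the feedback inhibitor that Stat3 induces, was at 4.30, 8.24, 6.62, 6.90, 5.51 and 6.33 in controls, at 6.91, 3.60 and 6.36 in non-fibrotic bronchi and at 6.78, 7.87 and 7.58 in fibrotic bronchi. Control 2 was the highest of all arrays and control 1 the lowest but one, and the groups overlapped. The log2 difference of fibrotic from control bronchi was 1.09, with a 95% interval of -0.64 to 2.82 (adjusted p = 0.385). From non-fibrotic bronchi it was 1.79, with an interval of -0.21 to 3.78 (adjusted p = 0.273). Intervals of this width include both no difference and a several-fold one.

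**Figure D3:**
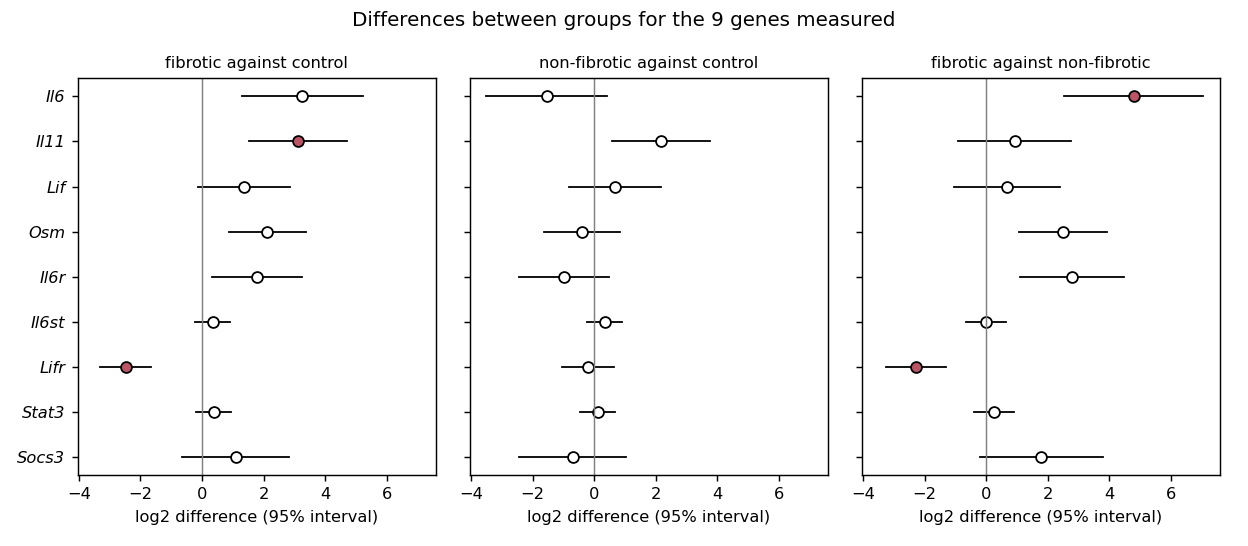
Log2 difference (horizontal axis) of each of the 9 genes in the 3 comparisons, with 95% intervals of the limma model. Red points are called at an adjusted p under 0.01: Il11 and Lifr against control, and Il6 and Lifr between fibrotic and non-fibrotic bronchi.

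Counted over the 9 genes, 2 were called between fibrotic and control bronchi, Il11 higher and Lifr lower, beside 9.39% of all probe sets, of which 2.99% were higher and 6.4% lower. Il6 and Osm also had an adjusted p under 0.05, so that 4 genes passed that threshold, beside 17.9%. The arrays of fibrotic and control bronchi did not overlap for 5 genes, beside 23.6% of all probe sets. The median log2 difference of the 9 genes was 1.38, which is the value of Lif, and that of all genes was 0.10. Some of these differences take in arrays below the absent-transcript level. With such arrays set to it, the differences of Il6, Il11, Lif, Osm and Socs3 were 2.02, 0.78, 1.23, 1.06 and 0.52. With controls 3 to 6 alone 4 genes were called, and with controls 1 and 2 alone 0 were.

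Between non-fibrotic and control bronchi limma called 0 of the 9 genes, beside 0.522% of all probe sets, and 1 gene, Il11, had an unadjusted p under 0.05. At an adjusted p under 0.05 the count was also 0, beside 5.83%. Il11 was also the gene whose arrays did not overlap, beside 14.6% of probe sets. The median log2 difference was -0.20, and that of all genes was 0.00. Between fibrotic and non-fibrotic bronchi 2 genes were called, Il6 higher and Lifr lower, beside 3.82%, of which 1.07% were higher and 2.75% lower. Il6r and Osm brought the count to 4 at an adjusted p under 0.05, beside 9.57%, and the same 4 genes had arrays that did not overlap, beside 23.1%. The median log2 difference was 0.93, and that of all genes was 0.00. The former is the value of Il11, which was 0.43 with arrays below the absent-transcript level set to it. A test over the 3 groups at once called 1 gene, Lifr (adjusted p = 0.00102), beside 8.92%.

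The fibrotic specimens also differed from the controls in markers of cell types. All 5 measured markers of ciliated cells were lower in fibrotic than in control bronchi and than in non-fibrotic bronchi. Their mean log2 signal was 12.2 to 12.7 in controls, 11.6 to 12.4 in non-fibrotic bronchi and 7.60 to 8.61 in fibrotic bronchi, and no marker was below the absent-transcript level in all arrays of a group. All 5 markers of club cells were lower against control, or 3 of the 5 with controls 1 and 2 alone, with means of 12.8 to 13.7 in controls, 11.4 to 12.4 in non-fibrotic and 7.19 to 8.48 in fibrotic bronchi, where Scgb3a1 was below the level in all arrays. Ciliated and club cell markers of the epithelium that the labels of the other bronchi imply are thus present there and much lower in the fibrotic specimens. Basal and squamous cell markers did not share this, with means of 4.64 to 8.52 in controls and 6.31 to 11.1 in fibrotic bronchi. In bulk tissue, fewer cells of a type and less RNA per cell cannot be told apart.

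Of the 9 markers of macrophages and monocytes 6 were higher in fibrotic than in control bronchi, with means of 8.16 to 9.32 in controls, 7.49 to 10.2 in non-fibrotic and 10.8 to 11.8 in fibrotic bronchi. Of the 9 markers of fibroblasts 5 were higher, with means of 9.70 to 11.3, 10.2 to 11.3 and 12.1 to 12.9. With controls 1 and 2 alone these counts were 1 and 0, and with controls 3 to 6 alone they were 5 and 9. Of the 4 neutrophil and 7 T and natural killer cell markers 0 were called by limma in this comparison, and 0 and 2 of them had an adjusted p under 0.05. The 3 fibrotic arrays had the lowest Lifr signals and the lowest means of ciliated and of club cell markers. They also had the highest Il6, Osm and Il6r signals and the highest means of macrophage and of fibroblast markers. Among them fibrotic 9, the lowest in Il6, Osm and Il6r, had the highest fibroblast mean (12.9) and the lowest macrophage mean (10.8). Non-fibrotic 4, with a macrophage mean of 10.2, above every control, had Il6 at 5.71 and Osm at 5.36, both below the absent-transcript level. Against non-fibrotic bronchi, 3 of the 4 neutrophil and 4 of 5 mast cell markers were also higher at an adjusted p under 0.05. Over all probe sets 9.57% passed that threshold, in either direction. With arrays below the level set to it, the median log2 difference fell from 3.02 to 2.50 for neutrophil and from 2.88 to 0.75 for mast cell markers. Kit and Fcer1a were below the level in all non-fibrotic arrays, and Fcer1a also in all fibrotic arrays. The part of these cells in the differences was not tested.

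**Figure D4:**
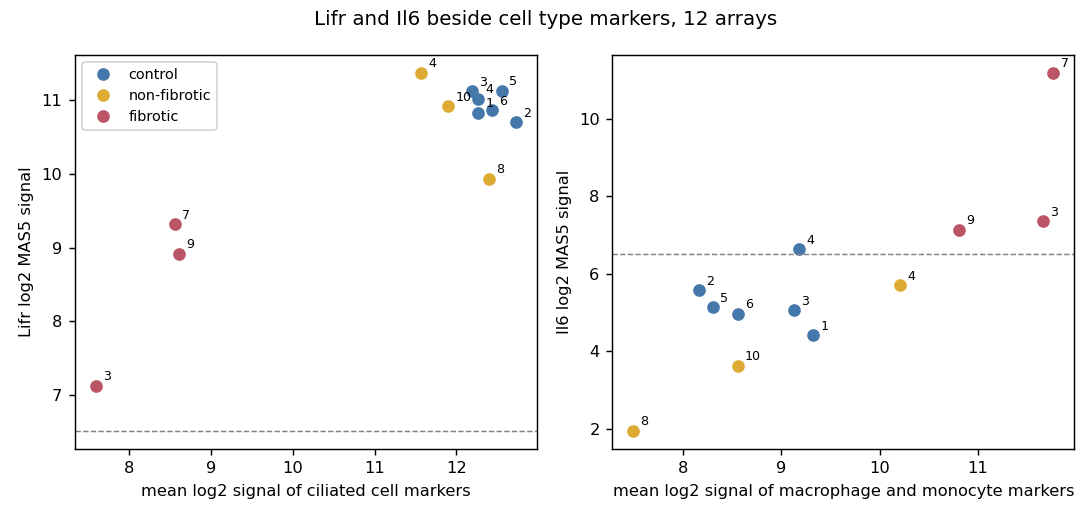
Log2 MAS5 signal of Lifr (left, vertical axis) against the mean log2 signal of 5 ciliated cell markers, and of Il6 (right) against that of 9 macrophage and monocyte markers, for 12 arrays labelled by replicate and coloured by group, with the absent-transcript level dashed. The fibrotic arrays have ciliated means of 7.60 to 8.61 with the lowest Lifr signals, and macrophage means of 10.8 to 11.8 with the highest Il6 signals.

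Signal profiles over the 12 arrays were compared with those of 8058 genes of mean log2 signal of at least 8, as a description. The genes most like Il6 by Pearson correlation were Acp2 (r = 0.92), Etfdh (r = 0.91), Ndrg1, Esd and Cyrib (r = 0.90 each), with fibrotic 7 the highest array of Il6. Those most like Socs3 were Prss22 (r = 0.91), C5h1orf174 (r = 0.90), 6430548M08Rikl (r = 0.89), Strap and Tmc6 (r = 0.84 each). Those most like Lifr, a gene added to this search after its values were seen, were Rph3al, Ccdc78, Fbxo16, Ddr1 and Slc22a23, with r of 0.95 to 0.96. The arrays of a group share their treatment and tissue, so these are not independent points.

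Of 91 other genes of the pathway 81 were measured. Between fibrotic and control bronchi 6 of them were called higher and 1 lower, beside 9.39% of all probe sets, of which 2.99% were higher and 6.4% lower. With controls 1 and 2 alone the counts were 1 and 1, and with controls 3 to 6 alone they were 10 and 1. Between non-fibrotic and control bronchi 2 were higher and 2 lower, which became 0 and 0 with controls 1 and 2 alone and 4 and 2 with controls 3 to 6 alone. Between fibrotic and non-fibrotic bronchi 5 were higher and 0 lower, beside 1.07% and 2.75%. These counts became 1 and 0 with controls 1 and 2 alone, or 5 and 1 with controls 3 to 6 alone. The log2 differences of this comparison are the same in each case, and only their estimated spread and adjusted p changed. Of the calls named in the following, those of Hp between fibrotic and control bronchi and of Il1rn were kept with controls 1 and 2 alone, and the others were lost. With controls 3 to 6 alone those of Adam17 (adjusted p = 0.0155) and of Timp1 against non-fibrotic bronchi (adjusted p = 0.0119) were lost, and the others were kept. In non-fibrotic bronchi 0.164% of all probe sets were higher and 0.358% lower than in controls, and the backgrounds of the other comparisons are given above.

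Among the 4 other ligands measured none was called in the 3 comparisons. Clcf1, a cytokine that acts through Il6st and Lifr, had the smallest p against control, with a log2 difference of 2.09 ± 0.54 (SE; adjusted p = 0.0140), at least 1.48-fold. None of the 3 other receptors was called either. The 13 kinases, adaptors and other Stats had a median log2 difference of 0.78 in fibrotic against control bronchi, with 12 of 13 positive and 0 called, while 3 had an adjusted p under 0.05. Jak2, a Janus kinase of these receptors, was at 8.33 to 9.19 in controls, at 7.55 to 8.28 in non-fibrotic and at 9.44 to 10.1 in fibrotic bronchi. It was higher in fibrotic than in non-fibrotic bronchi by 1.85 ± 0.34 on the log2 scale (SE; adjusted p = 0.00294), and its arrays did not overlap between fibrotic bronchi and either other group.

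Of 13 negative regulators 1 was called higher in each comparison, each time another gene, and 0 were with controls 1 and 2 alone. Ptpn2, a phosphatase of Janus kinases and Stats, was higher in fibrotic than in control bronchi by 0.89 (adjusted p = 0.00568). Pias1, an inhibitor of activated Stats, was higher in non-fibrotic than in control bronchi by 1.26 (adjusted p = 0.00842). Socs5, of the same family as Socs3, was higher in fibrotic than in non-fibrotic bronchi by 1.78 (adjusted p = 0.00338). Adam17, the protease that releases the Il6 receptor from the cell surface, was higher in fibrotic than in control bronchi by a log2 difference of 1.02 ± 0.24 (SE; adjusted p = 0.00758), 1 of 3 shedding genes called.

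Of 27 genes that textbooks give as induced through Stat3, 3 were higher in fibrotic than in control bronchi and 0 lower, with a median log2 difference of 0.61. With controls 1 and 2 alone 1 was higher, Hif1a, named after its values were seen, and with controls 3 to 6 alone 6 were. Timp1, an inhibitor of metalloproteinases, was at 7.00 to 8.47 in controls, at 11.06, 6.16 and 6.44 in non-fibrotic bronchi 4, 8 and 10 and at 11.6 to 12.8 in fibrotic bronchi. Non-fibrotic 4 stood apart from its group, and all fibrotic arrays were above it. Timp1 was 18.7-fold higher against control (log2 difference 4.22 ± 0.78, SE; adjusted p = 0.00126), and it was also called against non-fibrotic bronchi (4.38, adjusted p = 0.00589). Vim, a filament protein of mesenchymal cells such as fibroblasts, was higher against control by 1.78 (adjusted p = 0.000276). Birc5, which acts in cell division and survival, was higher by 2.57 (adjusted p = 0.000461).

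Ccnd1, a cyclin of the G1 phase, was the 1 gene of these 27 called between non-fibrotic and control bronchi, with a log2 difference of 1.66 (adjusted p = 0.00177). Its log2 difference in fibrotic bronchi was 0.78 (adjusted p = 0.0238). Il1rn, the natural antagonist of interleukin 1 receptors, was called between fibrotic and non-fibrotic bronchi, with a log2 difference of 3.28 (adjusted p = 0.00321), while against control it was at 1.74 (adjusted p = 0.0322).

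Acute phase proteins are induced by interleukin 6 in liver. Of 18 measured, 2 were called between fibrotic and control bronchi, A2m higher and Hp lower, beside 9.39% of all probe sets. The median log2 difference of the 18 was 0.69, or 0 with arrays below the absent-transcript level set to it. Several of them, such as Crp and Apcs, were below that level in every array. A2m, a protease inhibitor that is a main acute phase protein of the rat, was at 7.37, 6.60, 5.81, 4.38, 5.50 and 5.90 in controls, at 6.50, 5.56 and 4.51 in non-fibrotic and at 9.93, 7.82 and 10.27 in fibrotic bronchi. Its log2 difference was 3.41 ± 0.69 (SE; adjusted p = 0.00275) against control, or 2.67 with arrays below the level set to it, and it was at least 7.07-fold higher than in non-fibrotic bronchi (adjusted p = 0.00710).

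Hp, or haptoglobin, which binds free hemoglobin, was at 11.35, 12.12, 12.30, 12.47, 11.84 and 12.72 in controls, at 9.21, 9.85 and 9.15 in non-fibrotic and at 7.27, 7.62 and 8.51 in fibrotic bronchi, with no overlap between any of the groups. The log2 difference from control was -4.33 ± 0.32 (SE; adjusted p = 2.8e-07) in fibrotic and -2.73 ± 0.32 (SE; adjusted p = 0.00127) in non-fibrotic bronchi. Cp, or ceruloplasmin, a copper-binding plasma protein, was called in non-fibrotic bronchi, where it was lower than in controls by a log2 difference of -2.32 (adjusted p = 0.00468), and its difference in fibrotic bronchi was -1.18 (adjusted p = 0.0372).

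**Figure D5:**
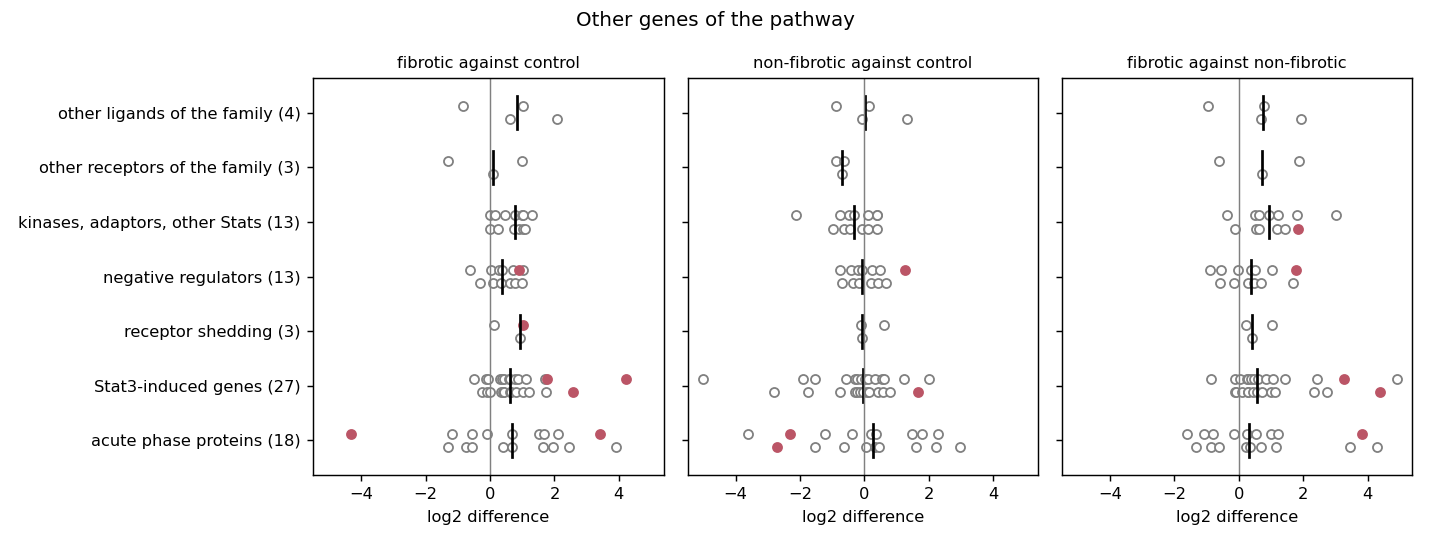
Log2 difference (horizontal axis) of the 81 other pathway genes in the 3 comparisons, 1 point a gene, grouped by role with the number measured in parentheses. Red points are called at an adjusted p under 0.01 and black lines are list medians, which for the Stat3-induced genes were 0.61 in fibrotic and -0.03 in non-fibrotic bronchi against control.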

How the data were processed

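Amplified RNA of laser-captured bronchi was measured on 12 arrays, grouped by the conditions and replicate numbers of their labels. The intensity values are MAS5 signals that the authors computed and deposited on a linear scale, each array scaled to a common trimmed mean (500.1 to 500.2 over these arrays, with 2% left off at each end). The MAS5 version is not given in the sources used here. A single signal summarises the probes of a probe set, so that dim values are uncertain.

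Signals were taken to log2 with no pseudocount or filter. Of 31099 probe sets, 57 Affymetrix controls were left out. One model of the 3 groups was fitted to the others with limma 3.58.1 (lmFit, eBayes with trend) in R 4.3.3. Its p-values were adjusted by Benjamini-Hochberg within each contrast. Scripts were tested on simulated data. Genes were named through 20826 tested probe sets with 1 symbol. The 9 genes and the lists of pathway genes and markers were chosen with earlier results of these data known. All 9 are named, with every called gene of the pathway lists and some with the smallest p. Alternatives changed the scaling, floor, filter, variance model, arrays, probe set and threshold. The number of arrays limits precision.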

Additional observations from a re-analysis of the deposited data

Results flagged for a closer look

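The difference between fibrotic and non-fibrotic bronchi was past the threshold for 2 of the 9 genes, which means that their changes against the shared controls differed. For Il6 that difference was 4.80 on the log2 scale, with fibrotic arrays from 7.14 to 11.19 and non-fibrotic arrays from 1.95 to 5.71, all 3 of the latter below the absent-transcript level. For Lifr it was -2.28, with fibrotic arrays from 7.13 to 9.31 and non-fibrotic arrays from 9.93 to 11.37. The other probe set of Lifr gave -4.18.

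One control array stood apart from the other 5 in the second probe set of Lifr: control 2, at 9.06, beside 9.53 to 9.79 in the others. Its gap to the nearest array was 0.64 of the range of the group. The control arrays of 14 probe sets were examined in this way, and about 1 group in 20 is expected to be marked by chance. Without control 2 the difference of fibrotic from control bronchi in this probe set was -3.57 (limma, adjusted p = 1.6e-05).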

How the results depend on the processing

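Under other processing choices, 678 values of single genes were recomputed. Of these, 605 kept their direction and their side of the threshold, 35 lost a call, 14 gained one and 24 changed sign. Between non-fibrotic and control bronchi 0 of the 9 genes were called by limma under any alternative, thresholds included. Settings were not combined, so the looser thresholds were applied to the first probe sets only. Other probe sets passed an adjusted p under 0.05 there, with 0.0134 and 0.0394 for Il6st and 0.0105 for Stat3 (limma). No paired analysis was possible because the labels do not say which specimens come from the same rat.

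The 2 calls between fibrotic and control bronchi became 1 with the dimmest 40% of probe sets dropped, which removes Il11 and Il6 from the test, or with no intensity trend. They became 4 with a floor at the 20th percentile, with only these groups in the model, with controls 3 to 6 alone or at an adjusted p under 0.05, and 0 with controls 1 and 2 alone. With each array left out in turn they ranged from 1 to 3. The 2 calls between fibrotic and non-fibrotic bronchi became 1 with dim probe sets dropped, with the floor, with a pseudocount of 16, with array weights or with controls 3 to 6 alone. They became 0 with no trend, with only these groups or with controls 1 and 2 alone, and 4 at an adjusted p under 0.05, and ranged from 0 to 2 with arrays left out. The 1 call over the 3 groups became 4 with the floor or the pseudocount, 2 with quantile normalization, 3 with median centring, with controls 3 to 6 alone or with the second probe sets, 0 with controls 1 and 2 alone and 5 at an adjusted p under 0.05, and ranged from 1 to 2 with arrays left out. The cause of these shifts was not tested, other than that fewer arrays or a looser threshold enter by construction.

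The call of Lifr against control was lost with controls 1 and 2 alone and kept otherwise, with log2 differences from -3.48 to -1.82. Against non-fibrotic bronchi it was lost with no trend, with only these groups, with controls 1 and 2 alone and without fibrotic 3, non-fibrotic 4 or non-fibrotic 10. Its second probe set kept both calls with either set of controls and without each array, in analyses added after the data had been seen. The changes of sign concerned differences that were not called. For fibrotic against control bronchi, Il6st fell to -0.33 with controls 1 and 2 alone, -0.55 with the mean of its probe sets and -0.39 with the second, and Stat3 to -0.34, -0.10 and -0.58. For non-fibrotic against control bronchi, the same settings gave -0.34, -0.77 and -1.06 for Il6st and -0.60, -0.67 and -1.47 for Stat3, which was at -0.079 with a random block for the forms of label. There Lifr was at 0.25 with the mean and 0.70 with the second probe set, and Osm at 0.088 with the floor. With each array left out in turn, Il6r ranged from -1.72 to 0.34 and Osm from -0.78 to 0.16, both positive without non-fibrotic 10, and Lifr from -0.52 to 0.20 and Socs3 from -1.34 to 0.32, both positive without non-fibrotic 8. Between fibrotic and non-fibrotic bronchi, Il6st ranged from -0.14 to 0.17, negative without fibrotic 7, non-fibrotic 4 or non-fibrotic 10, and Lif from -0.43 to 1.62, negative without fibrotic 7. Il6, Il11, Osm, Lif and Socs3 lie near or below the absent-transcript level in most arrays, which limits their folds.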

Other observations

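The remaining marker lists describe what else the specimens held. Of 5 markers of alveolar type II cells, 2 were lower in fibrotic than in control bronchi, and their mean log2 signal was 10.7 to 12.1 in controls, 12.4 to 12.5 in non-fibrotic and 8.42 to 12.1 in fibrotic bronchi. None of the 7 smooth muscle, 6 endothelial, 4 basal and squamous, 5 mast cell or 2 B cell markers was called between fibrotic and control bronchi, where 0 of the smooth muscle, endothelial, basal and B cell markers and 1 mast cell marker had an adjusted p under 0.05 (limma). The means of smooth muscle markers were 9.24 to 11.9 in controls and 9.99 to 11.1 in fibrotic bronchi. Those of basal and squamous cells were 4.64 to 8.52 in controls, 5.96 to 6.44 in non-fibrotic bronchi and 6.31 to 11.1 in fibrotic bronchi. Neutrophil markers had means of 6.36 to 10.3 in controls, 5.23 to 8.21 in non-fibrotic and 9.69 to 9.86 in fibrotic bronchi, and those of T and natural killer cells 5.47 to 8.98, 6.02 to 8.44 and 8.96 to 9.29. B cell markers ranged from 1.72 to 10.2 over the controls.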
